A study of Mus musculus with 4 samples.

Results

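The filaggrin-type S100 fused proteins are a small family of structural proteins, several of them very large. They are found in the upper epidermis, the hair follicle and the lining of the mouth and esophagus. The mouse family comprises 7 genes, *Crnn*, *Flg2*, *Flg*, *Hrnr*, *Rptn*, *Tchh* and *Tchhl1*, and these were taken by gene name from tables of 54752 gene identifiers. Each member had 1 row in each table, and all 7 were among the 13609 protein-coding genes that passed the filter for testing, an FPKM (sequenced fragments scaled for transcript length and for the size of the library) above 0.5 in at least 1 library. Membership was set by name and not by any measured value.

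RNA was sequenced from the epidermis of 4 C57BL/6 pups at postnatal day 0 (P0), 2 *Skiv2l* fl/fl *K14-Cre* knockouts and 2 littermate controls called *Skiv2l* ctl. *Skiv2l* encodes the helicase of the SKI complex, which feeds mRNA to the cytoplasmic RNA exosome for decay, and the study asked how its loss from keratinocytes alters the epidermal transcriptome. In the knockouts both *Skiv2l* alleles were floxed and Cre was driven constitutively by the *K14* promoter, which is active in basal keratinocytes. The paper describes the deletion as specific to keratinocytes, not to their basal layer, so epidermal cells of other types keep the gene. The controls were drawn from littermates with the *Skiv2l* allele floxed on both copies without Cre, or on 1 copy with or without *K14-Cre* (fl/fl, fl/+ or fl/+ *K14-Cre*), so every pup carried at least 1 floxed allele, and the genotype of each control pup is not given.

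Each member of the family begins with an S100 domain, a calcium-binding fold, joined in most members to a long run of tandem repeats. Profilaggrin, the product of *Flg*, is stored in keratohyalin granules and is cut into filaggrin units that bundle keratin filaments, and filaggrin is later broken down into the free amino acids that hold water in the cornified layer. Inherited loss of filaggrin underlies ichthyosis vulgaris and raises the risk of atopic dermatitis.

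The libraries held between 5.843 and 6.274 aligned gigabases, taken as coverage divided by FPKM, and between 16138 and 17761 genes with an FPKM above 0.5. *Skiv2l* itself had an FPKM of 19.3 and 19.1 in controls, against 10.8 and 8.55 in knockouts (log2 fold change -0.92, SE 0.12, limma adjusted p = 0.00368), which covers the whole gene and not the deleted exons alone. Epidermal keratins were abundant in every library, with *Krt5* between 1759 and 2075 FPKM. *Krt14*, the partner of *Krt5* in basal cells, rose from 1736 and 1812 to 7381 and 7312 FPKM (log2 fold change 2.05, limma adjusted p = 0.000171). The summed FPKM of 5 fibroblast markers was 61 and 68.8 in controls, against 21.2 and 24.4 in knockouts. Most of it came from *Dcn* (57 and 62.7 against 16.9 and 21.4). *Col1a2* was also lower (2.6 and 3.58 against 1.84 and 1.48, limma adjusted p = 0.0332), while *Col1a1* and *Col3a1* overlapped between genotypes. The summed FPKM of 5 leukocyte markers was 18.5 and 26.5 against 10.5 and 9.65, *Cd74* being the highest of them in each library. The part of fibroblasts and leukocytes in any result below was not tested. The Langerhans cell gene *Cd207* was at or near 0 in all 4 libraries, as were the endothelial *Cdh5* and the muscle gene *Myh3*.

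The family split. *Rptn*, encoding the cornified envelope precursor repetin, rose 24.3-fold in knockout epidermis, whereas *Flg2* fell to 0.368 and *Tchh* to 0.411 of the control level. *Flg* and *Hrnr*, the most abundant members, did not pass the test, and neither did the weakly expressed *Crnn* and *Tchhl1*. A gene is described as higher or lower only where its limma adjusted p, corrected by the Benjamini-Hochberg method over all 13609 genes, was under 0.05. By that rule 1 of 7 members was higher and 2 were lower, beside 8.99% of all tested genes higher and 25.4% lower. The median log2 fold change was 0.18 over the 7 members and -0.20 over all tested genes, and all log2 fold changes are on the log2(FPKM + 1) scale, knockout minus control.

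**Figure D1:**
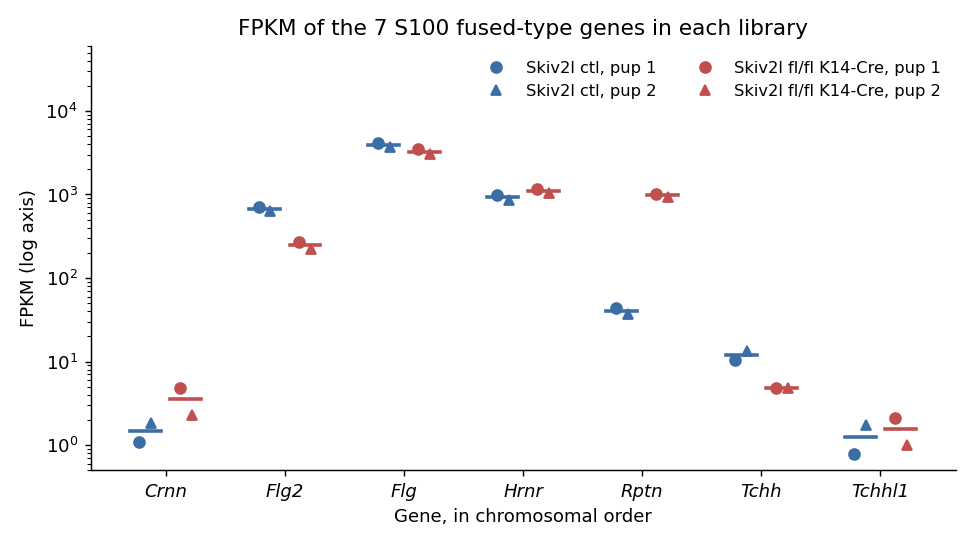
FPKM of each of the 7 genes in each library, on a logarithmic axis, with 1 point per pup and control and knockout pups in separate colors. *Rptn* lies near 40 in both controls and near 975 on average in the knockouts, while *Flg* is at 3053 or more in all 4 libraries.

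*Rptn* was the member that moved farthest. Its FPKM was 43.2 and 36.9 in controls, against 1020 and 929 in knockouts. Both knockouts stood far above both controls, and the pups within a genotype lay close together. The means were 40.1 ± 4.48 (SD, n = 2) and 975 ± 64.2 (SD, n = 2), a log2 fold change of 4.57 (SE 0.11, limma adjusted p = 1.34e-05). It ranked 16th of the 13609 tested genes by log2 rise. Among tested genes ordered by FPKM, *Rptn* stood at places 1278 and 1621 in the controls and at places 27 and 33 in the knockouts. In normal skin repetin is a minor product of the granular layer and hair follicle, and it is abundant in the papillae of the tongue. *Rptn* (ENSMUSG00000041984.2) lies at chr3:93393699-93399442 on the plus strand of GRCm38, and 95.1% of its single annotated transcript is 1 large exon. Its exons overlap those of *Gm37857*, a non-coding locus on the same strand, so reads from that stretch could belong to either gene. No 75-base stretch of the *Rptn* transcript occurred in another gene's transcripts, and the highest FPKM of *Gm37857* was 6.22. Mean per-base coverage of *Rptn* was 263 and 232 in controls, against 5960 and 5510 in knockouts.

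*Flg2*, encoding a filaggrin relative of the granular and cornified layers, went the other way. Its FPKM was 706 and 635 in controls, against 271 and 222 in knockouts. Both knockouts were below both controls with a wide gap between the groups. The mean fell from 671 ± 50.1 (SD, n = 2) to 247 ± 34.5 (SD, n = 2), a log2 fold change of -1.44 (SE 0.12, limma adjusted p = 0.000831). *Flg2* (ENSMUSG00000049133.7) lies at chr3:93197278-93221391, next to *Flg*. It was the 33rd and 47th most abundant tested gene in the controls and the 146th and 181st in the knockouts.

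*Tchh* encodes trichohyalin, which hardens the inner root sheath and medulla of the hair follicle after it is deiminated and cross-linked to keratins. Its FPKM was 10.4 and 13.3 in controls, against 4.84 and 4.88 in knockouts. The knockouts were almost equal to each other and lower than either control. The mean fell from 11.8 ± 2.06 (SD, n = 2) to 4.86 ± 0.0311 (SD, n = 2), a log2 fold change of -1.12 (SE 0.14, limma adjusted p = 0.00252). In bulk epidermis fewer hair follicle cells and less *Tchh* RNA per cell cannot be told apart, and the same holds for every member. *Tchh* (ENSMUSG00000052415.5) lies at chr3:93442330-93449077. When all 21921 protein-coding genes were tested without a filter, *Tchh* and *Flg2* no longer passed (limma adjusted p = 0.0625 and 0.0519), with the same log2 fold changes.

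*Flg* (ENSMUSG00000102439.4, chr3:93273523-93293686) was the most abundant member in every library. Its FPKM was 4087 and 3658 in controls, against 3460 and 3053 in knockouts. Both knockouts were below both controls, but the gap between the nearest pups was smaller than the SD of either group. The means were 3873 ± 303 (SD, n = 2) and 3256 ± 288 (SD, n = 2), with a log2 fold change of -0.25 (SE 0.12, limma adjusted p = 0.16). Set against the median of all tested genes, which was itself below 0, the log2 difference of *Flg* was -0.05. After quantile normalization, which assigns values by rank, it was called lower (log2 fold change -1.11, limma adjusted p = 0.000583). *Flg* was the 3rd and 4th most abundant tested gene in the controls and the 7th and 9th in the knockouts.

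*Hrnr* encodes hornerin, a repeat-rich protein of the granular layer and cornified envelope. Its FPKM was 993 and 853 in controls, against 1165 and 1047 in knockouts. The groups did not overlap, and the nearest pups of opposite genotype differed by less than the SD of either group. The means were 923 ± 98.9 (SD, n = 2) and 1106 ± 83.2 (SD, n = 2), with a log2 fold change of 0.26 (SE 0.12, limma adjusted p = 0.124). The result depended on how libraries were scaled. *Hrnr* (ENSMUSG00000041991.18, chr3:93319749-93333570) had a log2 fold change of 0.45 (limma adjusted p = 0.0331) when libraries were set to the same median and -0.16 (adjusted p = 0.415) after quantile normalization, so no direction is given for it.

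*Crnn*, encoding cornulin, is a gene of the esophageal and oral lining and is made at a low level in skin. Its FPKM was 1.09 and 1.83 in controls, against 4.80 and 2.27 in knockouts. Both knockouts were above both controls, and knockout pup 1 stood well above all the others. The means were 1.46 ± 0.529 (SD, n = 2) and 3.53 ± 1.79 (SD, n = 2), with a log2 fold change of 0.84 (SE 0.29, limma adjusted p = 0.0696). *Crnn* (ENSMUSG00000078657.6, chr3:93144787-93149819) passed the test under median scaling (adjusted p = 0.0432), under quantile normalization (adjusted p = 0.0383), and when knockout pup 2 was left out (1.25, adjusted p = 0.0206). It did not pass without knockout pup 1 (log2 fold change 0.43, adjusted p = 0.208), without control pup 1 (0.62, adjusted p = 0.313) or 2 (1.06, adjusted p = 0.142), or without a filter (adjusted p = 0.326).

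*Tchhl1*, trichohyalin-like 1, was the least abundant member. Its FPKM was 0.784 and 1.72 in controls, against 2.10 and 0.999 in knockouts. The groups overlapped, with the highest and the second lowest values both in knockouts. The log2 fold change was 0.18 (SE 0.28, limma adjusted p = 0.643), and its sign turned when control pup 1 or knockout pup 1 was left out. *Tchhl1* (ENSMUSG00000027908.2) lies at chr3:93468754-93471980. Mean per-base coverage was between 4.77 and 12.2 for *Tchhl1* and between 6.26 and 26 for *Crnn*, the shallowest in the family.

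**Figure D2:**
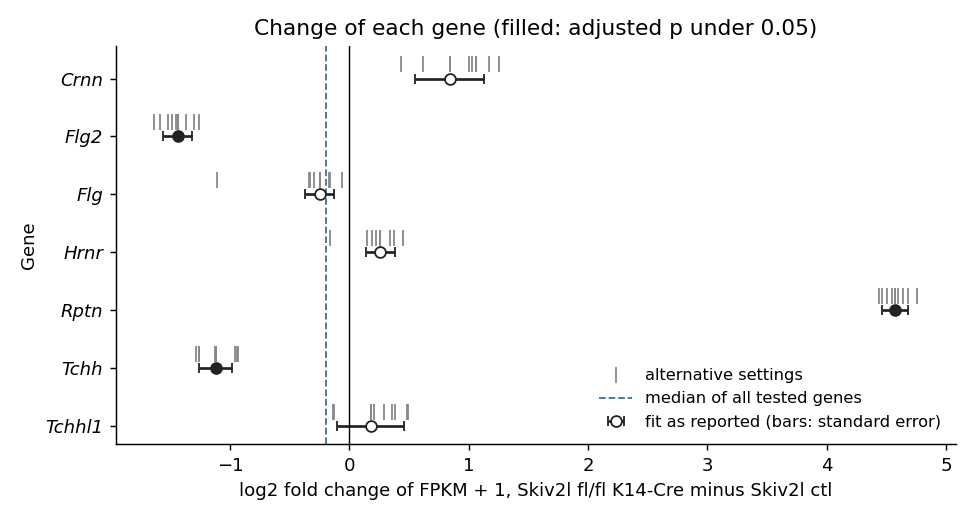
Log2 fold change (knockout minus control, log2(FPKM + 1) scale) of each gene with its standard error from limma, with the median of all tested genes marked. *Rptn* at 4.57 stands apart on the right, and *Flg2* at -1.44 and *Tchh* at -1.12 lie on the left.

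Non-overlap of the groups was common across the transcriptome. Both knockouts lay above both controls for 3 members (*Crnn*, *Hrnr* and *Rptn*) and below for 3 (*Flg2*, *Flg* and *Tchh*), where 18.2% of all tested genes were above and 55.3% below. The balance of calls over all genes also moved with scaling: 26.1% of calls were higher as reported, against 55.1% with median scaling and 46.8% with quantile normalization. *Rptn* stayed higher, and *Flg2* and *Tchh* lower, under both scalings.

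FPKM is scaled for transcript length, so levels of the members can be set side by side within a library, with less certainty for *Flg*, whose annotation is broken into several models, and for the repeat-rich *Hrnr* and *Flg2*. The same caution holds for the shares given next. In the controls the order was *Flg*, *Hrnr*, *Flg2*, *Rptn*, *Tchh*, *Crnn*, *Tchhl1*, and the ranges of *Crnn* and *Tchhl1* overlapped. In the knockouts *Rptn* moved past *Flg2* to the level of *Hrnr*, the order being *Flg*, *Hrnr*, *Rptn*, *Flg2*, *Tchh*, *Crnn*, *Tchhl1*. Some neighbors in this order were close in the knockouts. The gaps between the nearest values of *Hrnr* and *Rptn*, of *Tchh* and *Crnn*, and of *Crnn* and *Tchhl1* were smaller than the larger of the SDs in each pair.

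The summed FPKM of the 7 members was 5841 and 5200 in controls, against 5927 and 5259 in knockouts. These totals overlapped (means 5521 ± 454 and 5593 ± 472, SD, n = 2 each, exact permutation p = 0.667, two-sided), while the make-up of the total differed between genotypes. *Flg* supplied 70% and 70.4% of the sum in controls, against 58.4% and 58% in knockouts. *Rptn* supplied 0.74% and 0.71% in controls, against 17.2% and 17.7% in knockouts. *Flg2* went from 12.1% and 12.2% to 4.57% and 4.22%, so that *Rptn* took the larger share of the pair in knockout epidermis. *Hrnr* supplied 17% and 16.4% in controls, against 19.7% and 19.9% in knockouts. Shares of the 4 abundant members did not overlap between genotypes, and the smallest p that an exact permutation test allows with 2 pups against 2 is 0.333.

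**Figure D3:**
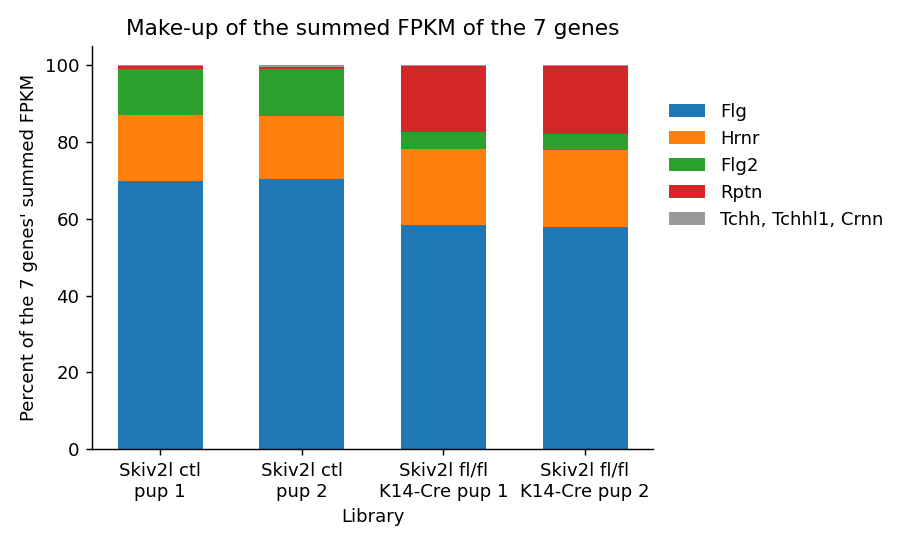
Share of the summed FPKM of the 7 genes, in percent, that each gene takes in each of the 4 libraries. *Rptn* is below 1% in both controls and above 17% in both knockouts, and *Flg* drops from about 70% to about 58%.

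Ratios of FPKM within a library, which a single scaling factor per library cannot alter, were close in pups of the same genotype. *Rptn* stood to *Hrnr* at 0.0436 and 0.0433 in controls, against 0.876 and 0.887 in knockouts. *Flg2* stood to *Flg* at 0.173 and 0.174 in controls, against 0.0783 and 0.0728 in knockouts. *Hrnr* stood to *Flg* at 0.243 and 0.233 in controls, against 0.337 and 0.343 in knockouts. Quantile normalization, which is not a single factor, does alter such ratios. These ratios do not show which partner of a pair changed.

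The repeats that define the family also bear on how its reads can be counted. Of the 75-base stretches along the longest transcript, 75.2% in *Flg*, 68.2% in *Hrnr* and 60.3% in *Flg2* occurred more than once within the same transcript. Repeated 30-base words were most often spaced by 750 bases in *Flg*, 1044 in *Hrnr* and 234 in *Flg2*. For *Flg2* the longest transcript is a non-coding model of 20803 bases, whereas its coding model has 7011. The share was 5.25% in *Tchh*, and *Rptn*, *Crnn* and *Tchhl1* had no repeated stretch of this length. None of the stretches of the 7 transcripts occurred in another gene's transcripts. How reads that fit several repeat copies were handled is not given in the sources used here. In the annotation *Flg* is also divided into 10 transcript models, 8 of them coding, and the longest reading frame among them has 357 codons, against 3411 in *Hrnr* and 2336 in *Flg2*. The level of *Flg* relative to other genes is therefore less certain than its change between libraries.

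The promoters are shown because these adjacent genes changed in opposite directions. The stretches below run from 130 bases before to 20 bases after the RefSeq start on GRCm38.p6, plus strand, for the called genes and for the abundant *Flg* and *Hrnr*. Capitals mark matches to TGANTCA, the binding motif of AP-1 factors such as Fos and Jun, and to TATAAA, the TATA box.
*Rptn* (chr3:93393569-93393718): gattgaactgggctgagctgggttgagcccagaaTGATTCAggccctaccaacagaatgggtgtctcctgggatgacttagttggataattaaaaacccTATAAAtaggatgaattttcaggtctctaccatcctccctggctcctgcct
*Flg2* (chr3:93197143-93197292): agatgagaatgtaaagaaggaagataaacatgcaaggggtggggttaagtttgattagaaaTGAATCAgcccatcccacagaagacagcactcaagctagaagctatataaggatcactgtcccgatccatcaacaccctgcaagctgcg
*Flg* (chr3:93273416-93273565): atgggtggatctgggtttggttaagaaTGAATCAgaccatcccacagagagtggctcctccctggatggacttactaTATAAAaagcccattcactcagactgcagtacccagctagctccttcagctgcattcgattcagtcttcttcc
*Hrnr* (chr3:93319619-93319768): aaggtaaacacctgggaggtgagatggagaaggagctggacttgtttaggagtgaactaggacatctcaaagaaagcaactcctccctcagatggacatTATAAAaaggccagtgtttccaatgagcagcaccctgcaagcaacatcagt
*Tchh* (chr3:93442200-93442349): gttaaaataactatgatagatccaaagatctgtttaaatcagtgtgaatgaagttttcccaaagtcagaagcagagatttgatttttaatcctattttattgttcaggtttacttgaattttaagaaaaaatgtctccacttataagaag

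All 7 members matched the RefSeq promoter table, whose windows run from 250 bases before to 50 after each start. TGANTCA, which reads the same on both strands, was found in 5 of 7 members (*Crnn*, *Flg2*, *Flg*, *Rptn* and *Tchhl1*) and in 7.81% of all 32851 windows. The matches began between 103 and 69 bases before the start. In *Rptn* and *Crnn* the match began at -96, in *Flg* at -103 and in *Flg2* at -69. TATAAA, searched on both strands, was found in 4 of 7 (*Crnn*, *Flg*, *Hrnr* and *Rptn*) and in 13.6% of all windows. It began at -31 in both *Rptn* and *Hrnr*. Only the exact letters were searched, and the printed *Flg2* stretch holds tatataag before the start, a near match that was not counted. AGATAA, the letters bound by factors of the GATA family, was found in *Flg2* and *Tchh* and in 11.2% of windows, and was searched on both strands. GCGTG, the core bound by the aryl hydrocarbon receptor, was found in none of the members and in 32.4% of windows. The TGANTCA match was present in a gene that rose (*Rptn*), a gene that fell (*Flg2*) and 3 that did not pass the test, so its presence did not separate the members by direction. The longest runs shared between members were 12 bases, ccatcccacaga in *Flg2* and *Flg*, at -60 and -94, and caccctgcaagc in *Flg2* and *Hrnr*, at 5 and -1, and 3 further pairs shared 11. A match is a description of letters and was not tested as a binding site. The transcribed part of the *Tchh* window opens with atg, the letters of a start codon. Its annotated start may therefore lie at the coding start, and the window may miss the promoter.

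**Figure D4:**
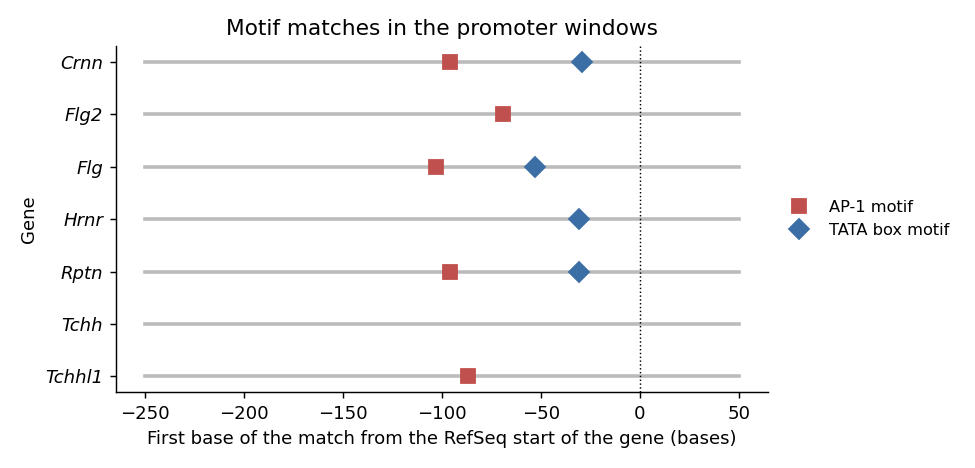
First base of each AP-1 (TGANTCA) and TATA box (TATAAA) match in the promoter window of each gene, in bases from the RefSeq start, with gray bars for the windows. AP-1 matches of 5 genes lie between -103 and -69, and the *Tchh* window, which may miss its promoter, holds neither motif.

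Genes that process filaggrin included both higher and lower ones. Of 25 such genes 23 were tested, 10 were higher, 5 were lower and 8 did not pass, beside 8.99% of all tested genes higher and 25.4% lower. Their median log2 fold change was 0.01. The counts were 5 higher and 1 lower without control pup 1, and 6 and 2 without control pup 2. *Asprv1*, the protease that releases filaggrin from profilaggrin and the most abundant of the list in controls, had an FPKM of 1945 and 1868 in controls, against 1714 and 1667 in knockouts (log2 fold change -0.17, limma adjusted p = 0.199). *Hal*, histidase, which turns filaggrin-derived histidine into urocanic acid, fell from 201 and 272 to 97.1 and 70 FPKM (log2 fold change -1.49, limma adjusted p = 0.00339). *Padi1*, a peptidylarginine deiminase of the epidermis, fell from 6.3 and 6.96 to 2.46 and 1.14 FPKM (log2 fold change -1.49, limma adjusted p = 0.00564). The transglutaminase gene *Tgm5* and the kallikrein gene *Klk14* rose, by 1.07 and 1.47 on the log2 scale (limma adjusted p = 0.00235 and 0.0062). *Tgm5* went from 19.2 and 19.4 to 36.9 and 46.8 FPKM. The weakly expressed *Klk14* went from 0.179 and 0.0387 to 2.82 and 1.46 FPKM. Members chosen after their values were seen included *Casp14*, a caspase that cleaves filaggrin units, which was lower (-0.56, limma adjusted p = 0.00431), and *Blmh*, bleomycin hydrolase, which acts late in filaggrin breakdown and was higher (0.77, limma adjusted p = 0.00145).

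Among the keratins that filaggrin bundles, *Krt1* and *Krt77* fell and *Krt10*, chosen after its values were seen, did not pass the test (log2 fold change -0.44, limma adjusted p = 0.076). Of 5 genes of keratohyalin and its keratin partners 4 were tested and 3 fell, beside 25.4% of all tested genes lower. The median log2 fold change of the 4 was -0.72. *Krt77* fell from 70.8 and 71.2 to 7.23 and 8.37 FPKM (log2 fold change -3.04, limma adjusted p = 3.12e-05), *Lor*, loricrin, from 828 and 867 to 448 and 444 (-0.92, adjusted p = 0.00109), and *Krt1* from 12721 and 13157 to 8246 and 9975 (-0.51, adjusted p = 0.0401). *Lor* and *Krt1* thus fell where *Flg*, stored in the same granular cells, did not pass the test, and the difference between these genes was not tested.

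For *Tchh*, genes of the hair follicle inner root sheath give the surroundings. Of 15 such genes 14 were tested, 1 was higher, 2 were lower and 11 did not pass. Among all tested genes 8.99% were higher and 25.4% lower. The median log2 fold change of the list was -0.21, close to that of all tested genes. *Krt27*, an inner root sheath keratin, fell from 5.86 and 10.4 to 3.59 and 3.52 FPKM (log2 fold change -0.96, limma adjusted p = 0.0249). *Gata3*, a transcription factor of that layer and of the interfollicular epidermis, was also lower (-0.91, adjusted p = 0.00411), and *Tgm3*, the transglutaminase that cross-links trichohyalin, was higher (0.59, adjusted p = 0.0208). The keratin *Krt71*, chosen after its values were seen, had an FPKM of 9.25 and 19.7 in controls, against 8.28 and 8.64 in knockouts (log2 fold change -0.62, adjusted p = 0.156), and control pup 2 was far above the other pups. The other tested keratins of the list, also chosen after their values were seen, did not pass. Their log2 fold changes were 0.33 for *Krt73*, 0.10 for *Krt28* and *Krt72*, -0.01 for *Krt25* and -0.41 for *Krt26*. The summed FPKM of the list was 209 and 233 in controls, against 196 and 192 in knockouts. Most of that sum came from *Gata3*, *Tgm3* and *Dlx3*, which are also expressed outside the root sheath, so it does not measure follicle content. The part of follicle content in the fall of *Tchh* was not tested. Without control pup 2, 0 genes of the list were higher and 0 lower, and *Tchh* itself kept its call.

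For *Rptn* and *Crnn*, genes of the oral and esophageal lining were examined. Of 10 genes 9 were tested, 4 were higher, 0 were lower and 5 did not pass, with a median log2 fold change of 0.59. By the same rule 8.99% of the 13609 genes in the test rose and 25.4% fell. The higher genes of the list were *Krt84* (2.17, limma adjusted p = 0.000674), *Krt76* (1.91, adjusted p = 0.000343), *Sprr3* (1.45, adjusted p = 0.00123) and *Tgm3*. The lists share genes: *Tgm3* also counts in the filaggrin processing and inner root sheath lists, and *Sprr3* among the *Sprr* neighbors below. The 5 that did not pass, chosen after their values were seen, were *Krt4* (-0.96, limma adjusted p = 0.198), *Krt13* (0.62, adjusted p = 0.15), *Krt24*, *Pax9* and *Sox2*. Each of *Krt84*, *Krt76* and *Sprr3* was below 10 FPKM in every library, at levels far under that of *Rptn* in the knockouts.

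Around the family, the epidermal differentiation complex was uneven. Of 69 protein-coding neighbors within 1000000 bases of the members 53 were tested, 27 were higher and 6 were lower. This stands beside 8.99% of all tested genes higher and 25.4% lower. Most *Sprr* genes, encoding small proline-rich envelope proteins, rose, 14 of 15 being higher with a median log2 fold change of 3.95. The 14 include *Sprr2j-ps*, chosen after its values were seen, whose symbol marks a pseudogene. Of 21 *Lce* genes, encoding late cornified envelope proteins, 9 were higher and 3 lower. All 6 *Lce3* genes rose, by 1.97 to 5.64, and they lie at -347.3 to -281.3 kb from the *Flg* start. *Rptn*, 120.2 kb to the right of the *Flg* start, was the only tested gene called higher between *Gm4858* at -204.7 kb and *S100a10* at 281.6 kb, and its neighbors *Hrnr* and *Tchh* at 46.2 and 168.8 kb did not rise with it in the reported fit. The largest rises in the locus were those of *2310046K23Rik*, from 4.81 and 8.53 to 415 and 470 FPKM (log2 fold change 5.89, limma adjusted p = 5.31e-05), *Lce3b* (5.64), *Sprr2i* (5.32) and *Lce3a* (5.13). On the same side of the family, at -254.5 kb, *Lce1m* fell from 655 and 614 to 136 and 93.7 FPKM (log2 fold change -2.48, limma adjusted p = 0.000441). *Lce1m* was chosen after its values were seen. *S100a11* and *S100a10*, the nearest S100 genes to the right, did not pass the test (-0.06 and -0.11, adjusted p = 0.583 and 0.334).

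**Figure D5:**
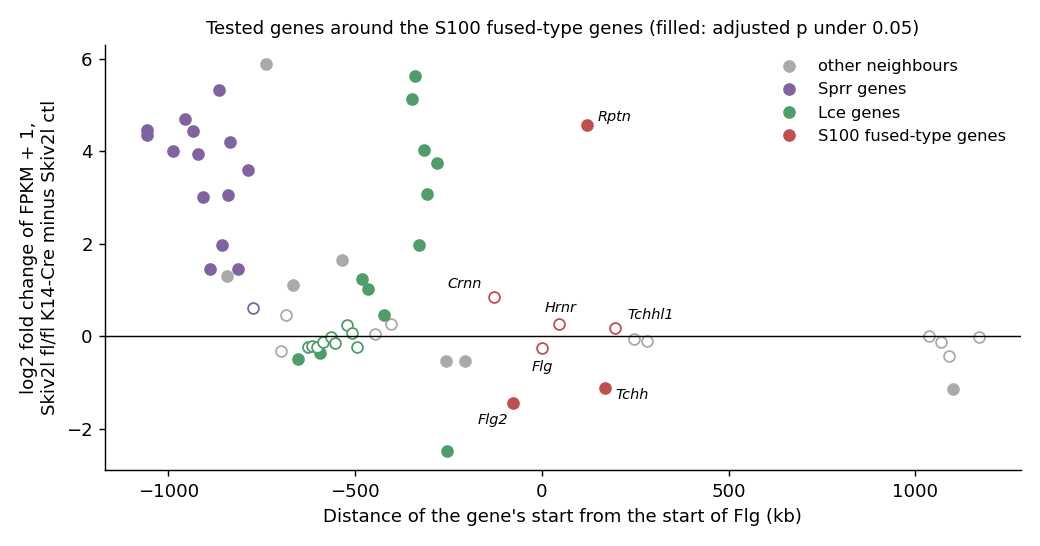
Log2 fold change (knockout minus control, log2(FPKM + 1) scale) of the tested protein-coding genes around the family against the distance of each gene's start from that of *Flg*, in kb, with the 7 members in color. The *Sprr* and *Lce3* genes rise on the left, and within the family *Rptn* at 4.57 stands between *Hrnr* and *Tchh*.

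Among all tested genes, the closest patterns to each called member were found by Euclidean distance between centered log2(FPKM + 1) values over the 4 libraries. Closest to *Rptn* were *Fabp4*, a fatty acid-binding protein gene (1.78 and 1.45 FPKM in controls, 55.8 and 57.8 in the knockouts, distance 0.17), and *Defb4*, a beta-defensin gene (0.101 and 0 in controls, 30.4 and 24.5 in the knockouts, distance 0.22). Closest to *Flg2* were *Anxa6*, an annexin gene, and *Rragd*, encoding a Rag GTPase, at distances of 0.024 and 0.034. Closest to *Tchh* were *Ppp1r26* and *Sostdc1*, at 0.038 and 0.058, the latter encoding a Wnt and BMP antagonist of hair follicles. With 4 libraries many genes that change by a like amount are close in this measure.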

How the data were processed

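Total RNA of P0 pup epidermis was sequenced in 4 libraries, 2 per genotype. The 7 members and all gene lists were chosen with earlier results of these data known. The authors processed the reads with an institutional workflow and deposited 1 table per library. The authors deposited FPKM, in which fragment numbers are divided by transcript length and by library size. They also deposited TPM, which the authors rescaled so that every library has the same total, and coverage, a signal that gives mean depth per base. The build is GRCm38 per the labels, and coordinates matched GENCODE M21 for 54037 of 54752 identifiers. The aligner, read length, strandedness and treatment of reads with several matches are not given in the sources used here.

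FPKM was summed per gene identifier. Of 21921 protein-coding genes, the 13609 whose FPKM exceeded 0.5 in 1 library or more entered a two-sided limma test (version 3.58.1, R 4.3.3, functions lmFit and eBayes, trend on). Values were log2(FPKM + 1), and p-values were adjusted by the Benjamini-Hochberg method over every gene tested. Shares were compared by exact permutation. Named genes were the members, *Skiv2l* and, as examples, some or all of the 4 genes of each list with the largest absolute log2 fold change among those called, the most abundant of a list, and the 2 nearest patterns to each called member. Genes outside this rule are said to be chosen after their values were seen, as were the cell type markers and nearest genes in the locus that are named. Promoter windows came from RefSeq on GRCm38.p6, and Python 3.11.15 was used for the motif search. Alternatives were another pseudocount, filter, unit, scaling and variance model, a replicate block, and leaving out each library. Protein features were not computed. The tables hold no read counts, so no counting interval is given. The 2 pups per genotype are different animals.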

Additional observations from a re-analysis of the deposited data

Results flagged for a closer look

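*Gm37857* was looked at again because it lies outside the tested set and was higher in both knockouts than in both controls. It is a non-coding locus at chr3:93393698-93394896 on GRCm38 that overlaps the first part of *Rptn* on the same strand. Its FPKM was 6.22 in knockout pup 1 and 2.35 in knockout pup 2, against 0.293 and 0.198 in the controls. In proportion to their level, the pups of the knockout genotype differed more from each other in *Gm37857* than in *Rptn* (1020 and 929 FPKM). Reads from *Rptn* and from this locus cannot be told apart where their exons overlap, although their transcripts share no 75-base stretch. No test was run on *Gm37857*.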

How the results depend on the processing

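*Rptn* stayed higher in all alternatives, with a log2 fold change of at least 4.44, and *Flg2* and *Tchh* kept their direction in all and their call in all but the test without a filter (-1.44, limma adjusted p = 0.0519, and -1.12, adjusted p = 0.0625), in which 21921 genes were adjusted together and 0 members were lower, 475 genes were higher and 927 lower. Median scaling gave 1.03 for *Crnn* and 0.45 for *Hrnr*, both called, so 3 members were higher, with 1925 genes higher and 1568 lower overall. Quantile normalization gave 1.06 for *Crnn* (called), -1.11 for *Flg* (called lower, adjusted p = 0.000583) and -0.16 for *Hrnr* (direction reversed), with 2 members higher and 1917 genes lower overall. That method assigns values by rank, and the place of *Flg* moved from 3 and 4 to 7 and 9. Leaving out each library in turn leaves 1 pup in a genotype, which limma assumes to vary like the others. It gave 0.43 to 1.25 for *Crnn*, -0.14 to 0.49 for *Tchhl1* (-0.13 without control pup 1, -0.14 without knockout pup 1), 1 to 2 members higher, 497 to 1146 genes higher and 805 to 3135 lower. The replicate numbers do not mark shared animals, and same-numbered pups did not deviate together (correlation -0.077 across genes). With the replicate number as a block, *Crnn* (0.84, adjusted p = 0.0445) and *Hrnr* (0.26, adjusted p = 0.0446) passed and 3 members were higher. The cause of the other changes was not tested. The filaggrin processing list held 4 to 11 higher and 1 to 6 lower genes, and the inner root sheath list 0 to 1 and 0 to 4. A share within a library is the same in TPM by construction. The 2 pups per genotype limit the precision of every value, and coverage limits *Crnn* and *Tchhl1*.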

Other observations

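*Rplp0-ps1*, annotated as a processed pseudogene of a ribosomal protein gene, lies within the span of *Flg* at chr3:93278141-93279073 on the same strand. Its FPKM was 56.9 and 58.0 in controls, against 43.6 and 37.2 in knockouts. How reads that match both it and its parent gene were counted is not given in the sources used here, so the level is uncertain. The 2 annotated miRNA loci within the family's span had FPKM values from 0 to 0.181 across the 4 libraries.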
